A study of Pyrus syriaca and Pyrus pyrifolia and Pyrus communis with 12 samples.

Results

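The miRs of the auxin pathway (families miR160, miR167, miR390 and miR393) were followed in pear stigmas and in the exudate on their surface. Of the 355 mature miR sequences in the count table, 6 were chosen by name as members: mdm-miR160a, fve-miR167a, fve-miR167d, mdm-miR390a, fve-miR393a and mdm-miR393g. The prefix of a name gives the species of the entry that stands for a sequence, apple (mdm), strawberry (fve) or peach (ppe). Small RNA came from 6 genotypes, each with 1 exudate library and 1 stigma library, which makes 12 libraries. Hosui and Shinsui are cultivars of P. pyrifolia (Asian pear) and Spadona is a cultivar of P. communis (European pear). Golan, Manara and SASA are wild populations of P. syriaca. The flowers were not pollinated and were taken at 12 HAA (hours after anthesis), after the blooming branches had stood overnight in a growth room. The cultivars grew in orchards at 430 m, whereas Manara lies at 450 m, SASA at 830 m and Golan at 900 m. The exudate was rinsed off the stigmas with water and pooled from 500 to 600 flowers of a genotype. Each genotype thus has no replicate within a tissue, and the tests below use the genotypes in place of replicates. The species, origin and site cannot be told apart.

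Auxin acts in the cell by promoting the destruction of repressor proteins, which frees the auxin response factors, the transcription factors that bind auxin-responsive promoters. In Arabidopsis, miR160 and miR167 cut the messages of different auxin response factors, and miR393 cuts those of the F-box receptors that sense auxin. miR390 acts one step removed, since it starts the production of trans-acting small RNAs from the TAS3 transcripts, and these in turn silence further auxin response factors. In flowers of Arabidopsis, miR167 is known for its role in anther and ovule development.

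The mature sequences show which entries are so alike that their counts may not be independent of each other. Each is given 5′ to 3′ as the count table lists it, with the seed (bases 2 to 8) in capitals.
mdm-miR160a: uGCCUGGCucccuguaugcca
fve-miR167a: uGAAGCUGccagcaugaucu
fve-miR167d: uGAAGCUGccagcaugaucuca
mdm-miR167h: uGAAGCUGccagcaugaucuua
mdm-miR390a: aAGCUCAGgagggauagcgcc
fve-miR393a: uCCAAAGGgaucgcauugauc
ppe-miR393a: cAUCCAAAgggaucgcauuga
mdm-miR393g: aUCAUGCUaucccuuuggauu

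The 6 members carried 5 distinct seeds. fve-miR167a and fve-miR167d shared theirs, and fve-miR167a, of 20 bases, was the whole of fve-miR167d without its last bases. Both had the same count in each of the 12 libraries, as had mdm-miR167b and ppe-miR167c, which also begin with these 20 bases. These 4 entries are therefore given as 1 measurement below, and whether the same reads were counted for each of them cannot be seen in the table. mdm-miR167h, shown for its own 3′ end, was the only entry with this seed and other counts. In the same way fve-miR393a, mdm-miR393a and ppe-miR393a had the same count in every library. ppe-miR393a, shown for its shifted start, matches fve-miR393a over 19 bases and has another seed. mdm-miR393g was taken as the other side of a miR393 hairpin from its pairing alone, since its arm is not given. Set against mdm-miR393a without gaps, 15 of 19 positions formed Watson-Crick pairs, 1 a G:U pair and 3 none. No entry of another family had a seed of a member. A 5′ U, which in Arabidopsis favours loading into AGO1, was the first base of 4 members and of 53.3% of all miRs with a read. mdm-miR390a, which in Arabidopsis is loaded into AGO7, and mdm-miR393g began with A, as did 19.2% of the miRs with a read.

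For each entry a single precursor is listed, although a sequence can have several. The sequences of mdm-miR160a and mdm-miR390a each carry 9 Rosaceae names, from apple, peach and strawberry. The listed precursor of mdm-miR160a lies on apple scaffold MDC022902.474 (bases 1630 to 1712, plus strand), and that of mdm-miR390a on MDC019512.230 (19835 to 19959, plus strand). The precursor of mdm-miR393g lies on MDC012340.117 (7899 to 8015, plus strand). In strawberry, the precursors of fve-miR167a, fve-miR167d and fve-miR393a lie on LG2 (14557555 to 14557673), LG4 (815457 to 815564) and LG7 (16959667 to 16959790), all on the plus strand. The genome builds are not given in the sources used here, and no pear position was used.

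All members were rare. The reads assigned to miRs numbered 27 to 176 in an exudate (median 49.5, 422 in all) and 199 to 1777 in a stigma (median 653, 5276 in all). Of the 72 combinations of a member and a library, 22 had a read, 19 of them exactly 1 read and the other 3 cases 3 reads. A count of 0 allows a share of up to 3 reads of the total, which was from 1.7% (Manara) to 11.1% (SASA) of an exudate and from 0.169% (Manara) to 1.51% (Shinsui) of a stigma. Shares are given with 95% Wilson intervals, and intervals and floors cover counting error only, since the reads carry no molecular identifiers. A share is relative to the other miRs of a library, so less of a miR and more of another cannot be told apart. The table holds no other marker by which the tissue labels could be checked.

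Every member was read in a stigma, and 4 of 6 were read in an exudate, against 114 and 61 of the 120 miRs with a read. By the study's rule, a miR is present in a tissue with at least 2 reads in any of its libraries. mdm-miR160a was present in the stigma and had no exudate read, which made it stigma-specific, as were 24 of the 120 miRs with a read (20%). mdm-miR390a was present in the exudate with at most 1 stigma read, and fve-miR393a in the stigma with at most 1 exudate read, so both fell between the classes, as did 25 of the 120 (20.8%). fve-miR167a, fve-miR167d and mdm-miR393g never had more than 1 read in a library and were not present in either tissue, like 46 of the 120 (38.3%). No member was common to both tissues, against 25 of the 120 miRs with a read (20.8%).

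**Figure D1:**
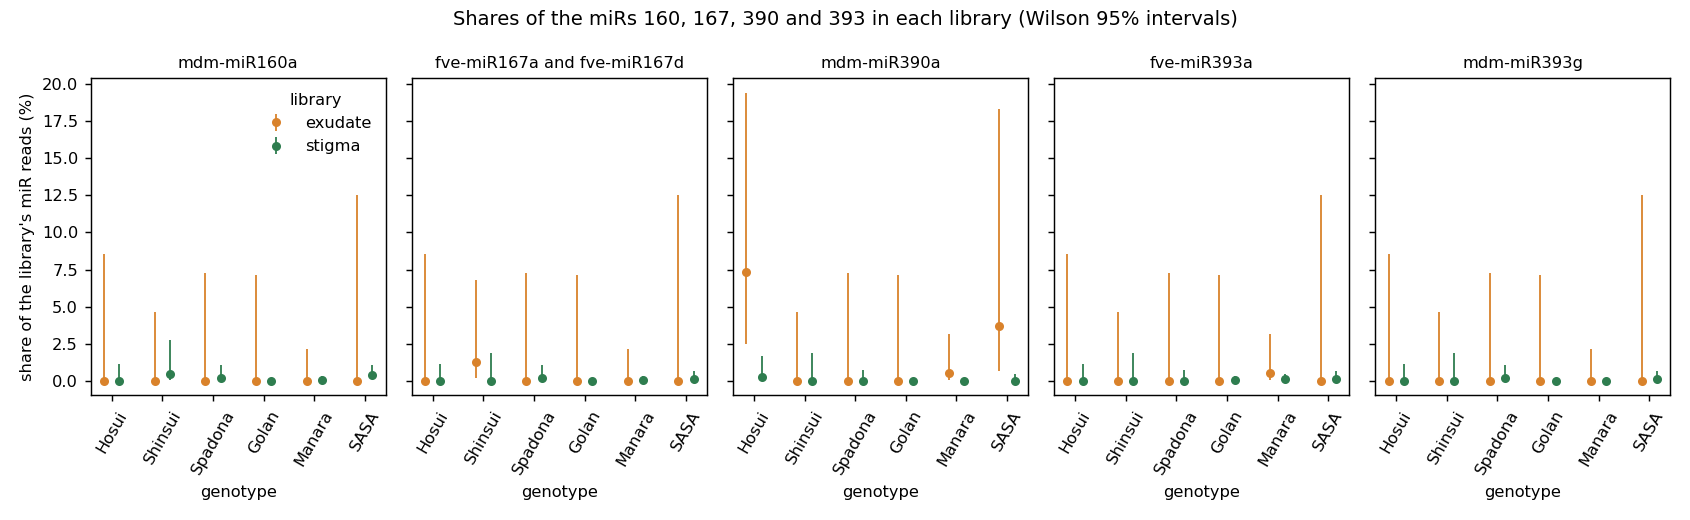
Share of each library's miR reads (%, y axis) taken by each member in the 6 genotypes (x axis), with exudate libraries in orange, stigma libraries in green, and 95% Wilson intervals as bars. fve-miR167a and fve-miR167d had the same counts and share a panel. The highest share is 7.32%, for mdm-miR390a in the Hosui exudate, and the exudate intervals are far wider than those of the stigmas.

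mdm-miR390a, the trigger of trans-acting small RNAs, was the member with the highest exudate share. It had 3 of 41 reads in the Hosui exudate (7.32%, 2.52% to 19.4%), 1 of 27 in SASA (3.7%, 0.657% to 18.3%) and 1 of 176 in Manara (0.568%, 0.1% to 3.15%). The exudates of Shinsui, Spadona and Golan had none. In the stigmas its only read was in Hosui, 1 of 337 (0.297%, 0.0524% to 1.66%). The exudate share was thus above the stigma share in 3 of 6 genotypes, both were 0 in the other 3, and the groups overlapped at 0. The mean share was 1.93% ± 3.01 in exudates and 0.0495% ± 0.121 in stigmas (SD, n = 6 genotypes each). By mean exudate share mdm-miR390a ranked 5 among the 61 miRs read there, and by mean stigma share 80 among 114. Each library has the same weight in this mean, and Hosui and SASA, which raised it most, had the shallowest exudates. By summed exudate reads more miRs stood above mdm-miR390a, among them mdm-miR408b with 8 reads and mdm-miR168a with 7 against its 5.

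Pooled over genotypes, mdm-miR390a had 5 of 422 exudate reads (1.18%) and 1 of 5276 stigma reads (0.019%). The ratio of these shares was 62.5, with a counting interval of 6.99 to 2957. At the exudate share, 62.5 stigma reads would be expected in place of 1. Hosui held 60% of the exudate reads and the only stigma read. Without it, 2 of 381 exudate reads stood against 0 of 4939 stigma reads, and the counting interval of the ratio began at 2.43. More exudate than stigma reads were found for 9 of 120 miRs, and only fve-miR156a and mdm-miR156a (6 against 1 read each) besides mdm-miR390a had at least 5 exudate reads.

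**Figure D2:**
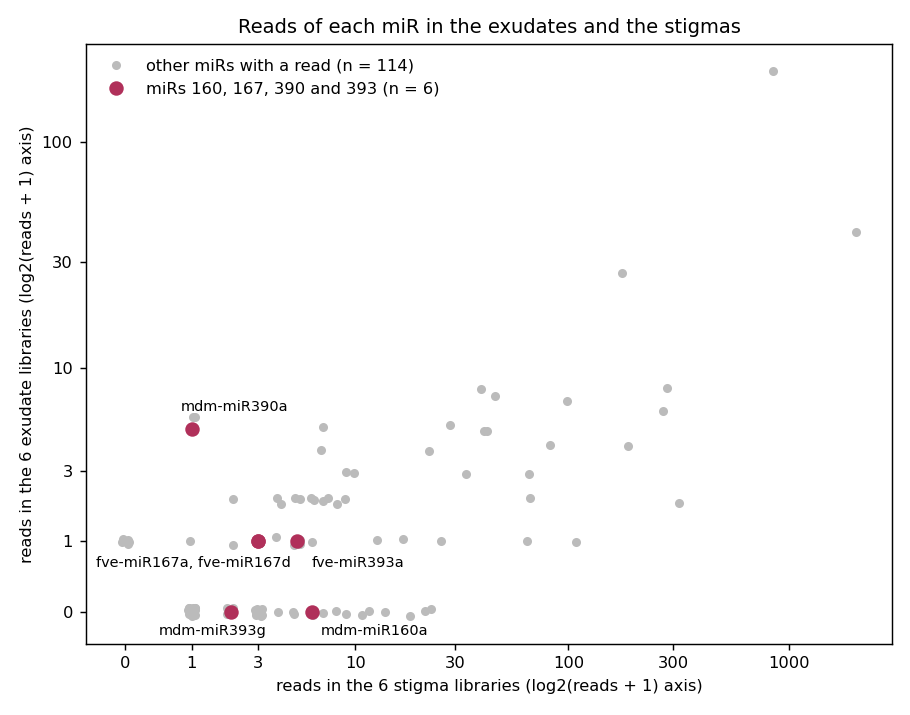
Reads of each of the 120 miRs with a read, summed over the 6 stigma libraries (x axis) and the 6 exudate libraries (y axis), both on log2(reads + 1) axes, with members in red and the other 114 miRs in grey (grey points are shifted slightly so that they can be told apart). mdm-miR390a stands at 5 exudate reads and 1 stigma read, while the other members have 0 or 1 exudate read.

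The test between the tissues asked whether exudates differ from the stigmas they come from. edgeR's quasi-likelihood test used TMM scaling and Benjamini-Hochberg adjustment over all 120 miRs with a read, and did not pair the libraries of a genotype. It called 6 of the 120 (5%), all lower in exudate, and none was a member. The direction of the calls depended on the scaling, since library size alone called 4 miRs (3 higher in exudate, 1 lower) and the TMMwsp variant 9 (3 higher, 6 lower), with mdm-miR390a among the higher ones in both. The log2 fold change of mdm-miR390a, exudate over stigma, was 3.25 ± 1.18 (SE, edgeR, n = 6 libraries each), with an adjusted p of 0.069. Its side of the threshold depended on the scaling. With library size alone edgeR gave 4.87 ± 1.19 and an adjusted p of 0.0019, and with the TMMwsp variant 3.42 ± 1.16 and 0.0433. The miR390 family has mdm-miR390a as its only entry, so its sum is the same 5 exudate reads and 1 stigma read. Scaled and adjusted over 55 families in place of 120 miRs, these reads gave 4.19 and an adjusted p of 0.0271 (edgeR with TMM). This is thus another scaling of mdm-miR390a and not a separate result. For mdm-miR390a among the 120 miRs, DESeq2 gave 2.80 ± 1.87 and an adjusted p of 0.812. The edgeR fit with the genotype as a block gave 2.61 ± 1.32 and 0.324. The TMM factors ranged from 0.943 to 3.53 in exudates and from 0.381 to 0.827 in stigmas, so that they separated the tissues. The median log2 fold change over all 120 miRs was -0.96 with TMM, -0.74 with library size alone and -0.27 with DESeq2.

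The share difference of mdm-miR390a, exudate minus stigma, was 1.88 ± 2.90 percentage points (SD, n = 6 genotypes, higher in exudate in 3 of 6, exact sign-flip test, two-sided p = 0.25, adjusted p = 0.769 over 120 miRs). With 3 genotypes at a difference of 0, this test cannot give less than 0.25. Without Hosui the difference was 0.854 points, and with the 2 most abundant miRs (mdm-miR482d and mdm-miR164b) left out of the totals it was 3.79 points (adjusted p = 0.797). The sign-flip test called 0 of the 120 miRs (0%), and 4 had an unadjusted p under 0.05. Over 6 genotypes this test cannot give a p below 0.0312, so after adjustment over 120 miRs none could pass alone. The 0 calls are therefore not evidence that the tissues are alike.

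**Figure D3:**
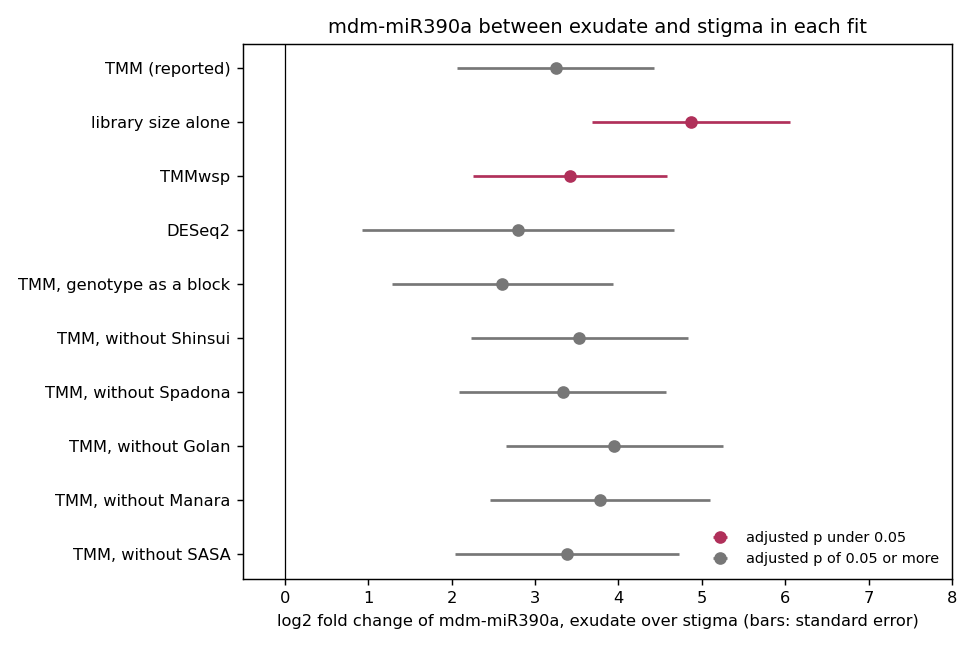
Log2 fold change of mdm-miR390a, exudate over stigma (x axis), in each fit (y axis), with standard errors as bars and fits with an adjusted p under 0.05 in red. All 10 fits lie above 0, from 2.61 to 4.87, and only library size alone and TMMwsp pass the threshold. The fits without Hosui and of P. syriaca alone are not drawn, because they hold no stigma read of this miR.

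mdm-miR160a, a regulator of auxin response factors, was read in stigmas only. It had 3 of 794 reads in the SASA stigma (0.378%, 0.129% to 1.1%), 1 of 199 in Shinsui (0.503%, 0.0888% to 2.79%), 1 of 512 in Spadona (0.195%, 0.0345% to 1.1%) and 1 of 1777 in Manara (0.0563%, 0.00993% to 0.318%). The stigmas of Hosui and Golan and all 6 exudates had none. The 4 stigmas with a read came from all 3 species. By mean stigma share, 0.189% ± 0.211 (SD, n = 6), it ranked 32 among 114 miRs, the highest rank of a member there. At the pooled stigma share of 0.114%, 0.48 reads would be expected in the exudates, and 0 of 422 reads allow a share of up to 0.711%, so a lower share in exudate was not detectable at this depth. The share difference was -0.189 ± 0.211 points (lower in exudate in 4 of 6 genotypes, exact sign-flip test, p = 0.125, adjusted p = 0.769), and edgeR gave an adjusted p of 0.366. Without an exudate read no difference could lie above 0, so the sign-flip p only reflects that 4 stigmas had a read.

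mdm-miR160a was also the only member in the target tables, where the study paired its miRs with Arabidopsis transcripts (TAIR release 10). It had 3 of the 163 pairings of the stigma table, with the other members in neither table and no pairing of these families among the 73 of the exudate table. By the study's methods, miRs between the classes, such as mdm-miR390a and fve-miR393a, were discarded from further analysis. fve-miR167a, fve-miR167d and mdm-miR393g were present in neither tissue by its rule. The absence of these members thus does not show that they lack predicted targets. The sites are given 5′ to 3′ on the transcript, as the table has them, with bases that form no Watson-Crick pair in capitals.
AT1G77850 (chromosome 1, transcript bases 1409 to 1429): uggcauGcagggagccaggca
AT2G28350 (chromosome 2, transcript bases 1329 to 1349): AggAauacagggagccaggca
AT4G30080 (chromosome 4, transcript bases 1508 to 1528): GggUUuacagggagccaggca

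Positions 1 to 14 of mdm-miR160a, counted from its 5′ end and so including the whole seed, were paired at all 3 sites. The site in AT1G77850 had 20 Watson-Crick pairs and a G:U pair at position 15. The site in AT2G28350 had 19 pairs and mismatches at positions 18 and 21. The site in AT4G30080 had 18 pairs, mismatches at positions 17 and 21 and a G:U pair at position 18. Whether a site lies in the coding part or a UTR is not annotated in the files. In the same tables, 24 of 37 sites that were given with the same transcript bases and sequence for more than 1 miR stood at different loci, so the locus of a single pairing is uncertain. None of the sites of mdm-miR160a was given for another miR.

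**Figure D4:**
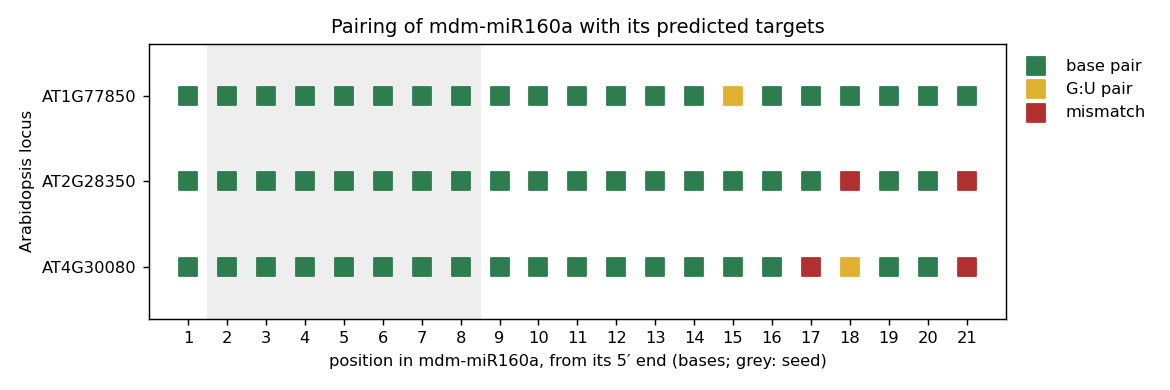
Pairing of mdm-miR160a (x axis, position in bases from its 5′ end) with the 3 predicted Arabidopsis loci (y axis), with Watson-Crick pairs in green, G:U pairs in yellow, mismatches in red and the seed shaded grey. Departures from pairing appear only from position 15 onwards.

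The study's table of gene ontology terms for the stigma targets had 49 terms, and 36 of them listed all 3 loci. Among these were transcription factor activity with sequence-specific DNA binding (44 genes listed), regulation of gene expression (49 genes) and multicellular organism development (35 genes). AT2G28350 alone was listed under flower development (16 genes) and growth (9 genes), and AT1G77850 alone under anatomical structure morphogenesis (19 genes). No term of the table named auxin. None of the 3 loci was among the exudate targets. The study's list of pollen transcripts was drawn from those targets alone, so it holds no value for these loci.

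fve-miR167a and fve-miR167d, the other regulators of auxin response factors, had 1 of 79 reads in the Shinsui exudate (1.27%, 0.224% to 6.83%) and none in the other exudates. In the stigmas each had 1 of 512 reads in Spadona (0.195%), 1 of 1777 in Manara (0.0563%) and 1 of 794 in SASA (0.126%). No genotype had a read in both its libraries. The pooled ratio of exudate to stigma share was 4.17 with a counting interval of 0.0794 to 51.9, so neither direction could be told. The ratio ran from 3.24 (without Golan) to 7.11 (without Manara), and without Shinsui no exudate read of 343 was left. edgeR gave a log2 fold change of 0.31 ± 1.49 (adjusted p = 0.879), which was 1.62 ± 1.59 with library size alone (adjusted p = 0.719) and 0.01 ± 1.56 with the genotype as a block (adjusted p = 0.993), and the share difference was 0.148 ± 0.553 points (higher in exudate in 1 of 6 genotypes, lower in 3, exact sign-flip test, p = 1, adjusted p = 1). Without Shinsui the difference was -0.0755 points. mdm-miR167h, which differs in its last bases, had 1 read in the Shinsui exudate too, and 2, 2 and 1 reads in the stigmas of Spadona, Manara and SASA.

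fve-miR393a, a regulator of auxin receptors, was read in the stigma of every wild genotype and of no cultivar. It had 3 of 1777 reads in Manara (0.169%, 0.0574% to 0.495%), 1 of 794 in SASA (0.126%, 0.0222% to 0.71%) and 1 of 1657 in Golan (0.0604%, 0.0107% to 0.341%). Its only exudate read was 1 of 176 in Manara (0.568%, 0.1% to 3.15%), the genotype with the deepest libraries of both tissues. The pooled ratio of exudate to stigma share was 2.5 with a counting interval of 0.0529 to 22.3. The share difference was 0.0355 ± 0.185 points (higher in exudate in 1 of 6 genotypes, lower in 2, exact sign-flip test, p = 1, adjusted p = 1), and -0.0373 points without Manara. Its sign also turned with the scaling, since edgeR gave a log2 fold change of -0.35 ± 1.31 with TMM (adjusted p = 0.879) and 1.13 ± 1.56 with library size alone (adjusted p = 0.719).

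mdm-miR393g, by its pairing the other side of a miR393 hairpin, had 1 of 512 reads in the Spadona stigma (0.195%) and 1 of 794 in SASA (0.126%), and none elsewhere. The SASA stigma thus had 1 read each of fve-miR393a and mdm-miR393g. Their listed precursors are of strawberry and apple, so whether both reads came from 1 pear hairpin cannot be seen. At the pooled stigma share, 0.16 exudate reads would be expected, so a difference between the tissues was not detectable at this depth. The share difference was -0.0535 ± 0.0858 points (lower in exudate in 2 of 6 genotypes, exact sign-flip test, p = 0.5, adjusted p = 1). As for mdm-miR160a, this p only reflects the number of stigmas with a read, here 2.

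Over the list, 4 of 6 members and 49 of 120 miRs had a higher mean share in exudate, with medians of 0.0918 and -0.0188 percentage points. A pair of these members, fve-miR167a and fve-miR167d, rests on the same counts, and fve-miR393a turns with the scaling as given above. Of the 13 entries of the families miR160, miR167, miR390 and miR393, 7 were not members. Of these 7, 5 had a read (mdm-miR167b, mdm-miR167h, ppe-miR167c, mdm-miR393a and ppe-miR393a), and mdm-miR167a and mdm-miR393d had none. None of the 5 passed the edgeR test between the tissues in either direction.

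Summed per family, miR390 ranked 11 among 55 families by mean exudate share (1.93%) and 40 by mean stigma share (0.0495%). miR167 ranked 16 (1.05%) and 19 (0.357%), and miR393 ranked 27 (0.284%) and 21 (0.231%). miR160 ranked 24 in the stigma (0.189%). The exudate sum of miR167 was 5 and came from 1 read in each of 5 entries of 1 library, so that these sums rise with the number of near-identical entries. No member reached the 10 reads set as the least for naming miRs of like pattern. The highest total was 6, and the median over the 120 miRs with a read was 5.

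The wild and the cultivated stigmas were compared next. The wild stigmas were deeper, with 794 to 1777 reads (4228 in all) against 199 to 512 (1048 in all), and this difference in depth cannot be told apart from origin. edgeR called 4 of the 114 miRs with a stigma read (3.51%), none of them a member. fve-miR393a had 5 reads in the 3 wild stigmas (mean share 0.118% ± 0.0546, SD) and 0 in the 3 cultivated ones, so that the groups did not overlap. Of all 114 miRs, 14.9% had groups that did not overlap and 13.2% had all wild shares above all cultivated ones. At the pooled wild share of 0.118%, 1.24 reads would be expected in the cultivated stigmas, and 0 of 1048 reads allow up to 0.286%, so the difference was not detectable at this depth. The exact permutation test gave p = 0.1, the smallest that 3 against 3 allow (adjusted p = 0.671), and the edgeR adjusted p was 0.55. This permutation test called 0 of the 114 miRs (0%), and none could have passed.

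For the other members the wild and cultivated stigmas overlapped. mdm-miR160a had 4 wild and 2 cultivated stigma reads, with mean shares of 0.145% ± 0.204 and 0.233% ± 0.253 (SD, n = 3 each, exact permutation test, p = 0.7, adjusted p = 1). fve-miR167a and fve-miR167d had 2 wild reads and 1 cultivated read (p = 1, exact permutation test), and mdm-miR393g had 1 of each (p = 1, exact permutation test). The single stigma read of mdm-miR390a was in a cultivar. The P. communis cultivar Spadona had 1 read each of mdm-miR160a, fve-miR167a, fve-miR167d and mdm-miR393g in its stigma and no member in its exudate of 49 reads.

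The exudates of the cultivars held 169 reads and those of the wild genotypes 253. mdm-miR390a was read in both groups, with 3 cultivated reads (Hosui) and 2 wild reads (Manara and SASA). edgeR with TMM and Benjamini-Hochberg adjustment called 0 of the 61 miRs with an exudate read (0%), with 1 at an unadjusted p under 0.05, and DESeq2 called 0. For mdm-miR390a it gave a log2 fold change of -1.07 ± 1.55, wild over cultivated (adjusted p = 0.651). The test of whether the difference between the tissues itself differed between wild and cultivated pears called 0 of 120 miRs (0%, edgeR), with 3 at an unadjusted p under 0.05 and no member past the threshold. DESeq2 was not run for it.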

How the data were processed

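The deposited table holds whole read counts per unique mature miR sequence, without normalization. Per the study's methods and the submitters' processing notes, the authors trimmed reads with cutadapt 1.1 (18 to 28 bases kept), removed low-quality reads with FASTX 0.0.14 and used miRExpress 2.0 for assignment to strawberry, apple and peach miRs of miRBase 22, with up to 7% mismatches, an offset of up to 11 bases and at least 50% overlap. One read can thus count for near-identical miRs. The counts of identical sequences were averaged by the authors. Targets came from psRNATarget with an expectation of at most 2.5. p-values in the ontology table were not used.

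The members and lists were chosen with earlier results of these data known. All 6 members are described, with every other entry of miR160, miR167, miR390 or miR393 and every target locus of a member. fve-miR156a and mdm-miR156a were named after their values were seen. edgeR 4.0.16 (quasi-likelihood, TMM, no filter, FDR of 0.05) in R 4.3.3 compared tissues and origins. Its standard errors were derived from the F statistic and are approximate. No fitted fold change is given where a group had no read. Exact sign flips over 6 genotypes and exact permutations, both two-sided, were used for shares, adjusted over all miRs with a read, in Python 3.11.15 (numpy 2.4.6, pandas 2.3.3, scipy 1.17.1), and figures were drawn with matplotlib 3.10.9. Alternatives were other scalings and filters, DESeq2 1.42.0, the genotype as a block, subsets of species, and each genotype left out.

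Both libraries of a genotype share the genotype by the labels. Over 35 miRs with at least 10 reads, deviations of exudate and stigma correlated with r from -0.721 to 0.934, above 0.1 in 2 of 6 genotypes. In 0 of 6 genotypes did the exudate match its own stigma best, so the pairing rests on the labels alone. In tests on simulated data at these depths, edgeR recovered a minority of strongly changed miRs, and with TMM part of its calls were false, and most of them where all changes went one way. Library size alone gave fewer false calls there. The simulated counts were drawn from the library totals with the same shares in every genotype of a tissue, apart from the changes set in the exudates. Which scaling suits the real libraries was thus not tested.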

Additional observations from a re-analysis of the deposited data

Results flagged for a closer look

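Among 14 sets of 6 libraries of 1 tissue (shares of each member, their sum and the total reads), 5 had a library whose gap to the next was past Dixon's 95% critical value, a rule that chance alone meets in about 1 in 20 sets. In 4 of them a single read stood against 5 libraries without one, which always meets the rule: fve-miR167a and fve-miR167d at 1.27% in the Shinsui exudate, fve-miR393a at 0.568% in the Manara exudate, and mdm-miR390a at 0.297% in the Hosui stigma. The total of the Manara exudate, 176 reads, stood above the other exudates.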

How the results depend on the processing

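Of 227 alternative values, 180 kept their direction and their side of the threshold or stayed close to the reported value. The 6 calls between the tissues became 0 with edgeR's filter, which left 3 miRs and no member, 3 per family, and 2 to 9 with a genotype left out (2 without Golan or SASA, 3 without Manara). The 4 calls between wild and cultivated stigmas became 1 with library size alone, 0 with DESeq2, 2 with the filter, 0 without P. communis, and 0 to 3 with a genotype left out, and the 0 calls in exudates became 1 without SASA (range 0 to 1). With the genotype as a block the tissue calls were 7, the interaction calls 0, and no call of a member changed. Without the pairing of genotypes the share differences stood at -0.189 (mdm-miR160a), 0.148 (fve-miR167a), 1.88 (mdm-miR390a), 0.0355 (fve-miR393a) and -0.0535 (mdm-miR393g), none past the threshold.

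mdm-miR390a passed the threshold at 4.87 (library size alone) and 3.42 (TMMwsp), and ranged from 3.33 to 3.95 with a genotype other than Hosui left out. fve-miR393a reversed to 1.13 (library size alone), ranged from -0.45 to 0.29 with a genotype other than Manara left out (its only exudate read is there), and its share difference became -0.555 with TMM-scaled counts. Between wild and cultivated stigmas, DESeq2 reversed mdm-miR160a to 0.42 and fve-miR167a and fve-miR167d to 0.16, and without P. communis the share differences reversed to 0.0607 (fve-miR167a, fve-miR167d) and 0.042 (mdm-miR393g). The log2 fold change of fve-miR167a and fve-miR167d between the tissues ranged from 0.43 to 1.03 with a genotype other than Shinsui left out. Without mdm-miR482d and mdm-miR164b in the totals, the share differences were -0.452 (mdm-miR160a), 0.454 (fve-miR167a, fve-miR167d), 3.79 (mdm-miR390a), 0.166 (fve-miR393a) and -0.123 (mdm-miR393g), none past the threshold. The cause was not tested. On the scale of log2 of (reads + 0.5) over the total, the differences were 2.22 (mdm-miR160a), 2.95 (fve-miR167a, fve-miR167d and mdm-miR393g), 4.21 (mdm-miR390a) and 2.75 (fve-miR393a). All but mdm-miR160a passed the threshold, but so did 85 of 120 miRs in this direction, 44 of them without an exudate read, because 0.5 read is a larger share of a shallower library.

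With a genotype left out, the share differences between tissues ranged from -0.226 to -0.126 (mdm-miR160a), -0.0755 to 0.217 (fve-miR167a, fve-miR167d), 0.854 to 2.26 (mdm-miR390a), -0.0373 to 0.0678 (fve-miR393a) and -0.0643 to -0.0252 (mdm-miR393g). Between wild and cultivated stigmas they ranged from -0.204 to 0.047 (mdm-miR160a, reversed without Shinsui), -0.037 to 0.0607 (fve-miR167a, fve-miR167d, reversed without Spadona or Golan), and -0.0651 to 0.042 (mdm-miR393g, reversed without Spadona). With 1 read as the minimum, 4 members were present in exudate and 6 in stigma. With a genotype left out, 0 to 1 (0 without Hosui) and 1 to 2 (1 without Manara or SASA) were. A stricter psRNATarget expectation was not run, because the tables used here give no expectation per pairing.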
